A study of Mus musculus with 6 samples.

Results

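CDK inhibitors and pocket proteins are the brakes of the G1 phase of the cell cycle, and 9 of their genes were followed here in spheres grown from the mammary glands and tumours of MMTV-Neu mice. They are the CIP/KIP inhibitor genes Cdkn1a and Cdkn1b, the INK4 inhibitor genes Cdkn2a, Cdkn2b, Cdkn2c and Cdkn2d, and the pocket protein genes Rb1, Rbl1 and Rbl2. The genes were chosen by symbol, and for each the transcript with the highest mean count was taken. All 9 had rows in every library and passed the filter on low counts, among 19893 symbols with a row in every library and 13844 that were tested. The mice carry the rat Neu (HER2) oncogene under the mouse mammary tumour virus promoter, which is active in mammary epithelium, on the FvB background. Early lesion (EL) spheres came from animals aged 14 to 18 weeks in which no tumour could be felt, and primary tumour (PT) spheres from tumours of animals over 20 weeks of age, with 3 libraries in each group. Both groups carry the transgene, both were kept for 7 days in non-adherent mammosphere culture, and there is no group without the oncogene. Since no label ties the libraries to separate animals, the p-values rest on the spread among libraries, and that spread may be technical.

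CIP/KIP proteins bind cyclin-CDK complexes, CDK2 complexes above all, and INK4 proteins bind CDK4 and CDK6 and keep them from D-type cyclins. When these kinases are held back, the pocket proteins stay unphosphorylated and bind E2F factors, so that genes of DNA replication and mitosis are repressed. The retinoblastoma protein, encoded by Rb1, binds mainly activating E2Fs, whereas p107 (Rbl1) and p130 (Rbl2) bind E2F4 and E2F5. With the MuvB proteins, p130 forms the DREAM complex of resting cells. Much of the control of these proteins, such as the breakdown of p27 and the phosphorylation of the pocket proteins, takes place after transcription and is not seen in RNA counts.

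Cdkn2a is shown first because 1 gene encodes a pair of proteins. It lies on the minus strand of chromosome 4 (89274473 to 89294619, GRCm38.p6), and a transcript that starts at exon 1β encodes p19ARF, which holds back Mdm2, while one that starts at exon 1α, 12461 bases further along in the GENCODE models, encodes p16INK4a. Both first exons join the same exon 2 (89276645 to 89276985). The lines give the last 36 bases of each first exon in lower case and the first 36 bases of the shared exon 2 in capitals, 5′ to 3′, from the GENCODE transcripts on GRCm38.
Exon 1β to exon 2 (p19ARF, NM_009877): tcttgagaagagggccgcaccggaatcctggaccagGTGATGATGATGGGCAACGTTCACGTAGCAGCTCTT
Exon 1α to exon 2 (p16INK4a, NM_001040654): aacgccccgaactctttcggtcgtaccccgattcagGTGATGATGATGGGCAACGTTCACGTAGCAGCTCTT
The coding part of exon 1β is 190 bases long and that of exon 1α 126 bases. The shared exon is therefore read in different frames, and reads within exon 2 or the shared part of exon 3 cannot be assigned to either protein. Exon 3 is 304 bases long in the INK4a model and 234 in the ARF model.

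Promoters are shown for the genes whose upstream bases match an E2F word or a p53 element. Promoter windows, 250 bases before to 50 after an annotated start, came from RefSeq on GRCm38.p6 and were found for 8 of the 9 genes, all but Rb1. They were searched on both strands for the E2F words TTTCCCGC, TTTCGCGC, TTTGCCGC and TTTGGCGC and for the p53 response element with at most 1 mismatch to its consensus. An E2F word was present in 2.26% of 32851 promoters (TTTCCCGC in 1.07%, TTTCGCGC in 0.323%) and a p53 element in 0.0883%. Among the windows of the 8 genes, E2F words were found in those of Rbl1 and of the ARF transcript of Cdkn2a, and a p53 element in that of the upstream start of Cdkn1a. Also searched were the CHR motif bound by MuvB complexes (TTTGAA or TTCGAA, in 19.2% of promoters), the GC box GGGCGG (35.7%) and the FOXO word GTAAACAA (1.23%). A CHR match lay 201 to 196 bases before the start of Rbl2 and 161 to 156 bases before that of Cdkn2b, at least 1 GC box lay in the windows of all 8 genes, and no FOXO word was found. The mice are FvB, and the sequences are those of the C57BL/6J reference. The lines give the 250 bases before each start, with the match in capitals.
Rbl1, chr2:157204535-157204784, minus strand: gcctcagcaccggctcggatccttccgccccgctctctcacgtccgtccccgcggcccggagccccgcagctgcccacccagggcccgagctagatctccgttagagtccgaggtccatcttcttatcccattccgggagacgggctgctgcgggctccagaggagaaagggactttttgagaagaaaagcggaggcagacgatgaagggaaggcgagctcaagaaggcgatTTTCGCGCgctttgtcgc
Cdkn2a, ARF start, chr4:89294620-89294869, minus strand: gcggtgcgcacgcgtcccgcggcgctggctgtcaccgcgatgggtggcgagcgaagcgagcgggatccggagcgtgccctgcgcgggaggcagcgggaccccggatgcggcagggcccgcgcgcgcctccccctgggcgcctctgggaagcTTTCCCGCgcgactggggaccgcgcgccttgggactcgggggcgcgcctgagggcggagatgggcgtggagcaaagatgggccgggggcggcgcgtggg
Cdkn1a, upstream start, chr17:29090729-29090978, plus strand: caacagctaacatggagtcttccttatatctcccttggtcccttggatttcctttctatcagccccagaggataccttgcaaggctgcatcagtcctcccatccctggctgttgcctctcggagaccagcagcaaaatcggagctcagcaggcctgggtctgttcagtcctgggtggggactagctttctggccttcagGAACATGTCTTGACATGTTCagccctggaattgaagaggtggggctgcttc
The window of the INK4a start held none of the E2F words or p53 elements, which says only that these letters are absent from it.

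Counts over the chosen transcripts were 43278382 to 44166281 per EL library and 47029670 to 51117359 per PT library. Correlations of log2 CPM across genes were at least 0.995 within a group and between 0.839 and 0.847 across groups. The libraries differed widely in the RNA of cell type markers. Of 10 fibroblast markers all were lower in PT, and they held 5.30 to 5.65% of the counts in EL and 0.0489 to 0.0605% in PT. All 8 endothelial markers were lower as well (0.0212 to 0.0227% and 0.00111 to 0.00125%), whereas all 8 epithelial markers were higher (0.212 to 0.216% and 0.888 to 0.924%) and 6 of 7 macrophage markers with a row under the listed symbol were higher (0.0469 to 0.0619% and 0.0999 to 0.111%). Of 6 myoepithelial markers 2 were higher and 4 lower, and all 4 adipocyte markers tested were lower. No lymphocyte marker passed the filter. Neither the fibroblast nor the endothelial list had a gene at 0 in either group. The label of the EL tissue names lung beside mammary, and lung epithelial markers were near 0 in both groups. Of these 6 markers, Scgb1a1, Nkx2-1 and Sftpa1 had 0 counts in all libraries, and Sftpb had 1 count in EL replicate 2 and 1 in PT replicate 1. Sftpc had 3, 0 and 6 counts in EL and 11, 11 and 10 in PT, and Ager, which passed the filter, was at 1.24 ± 0.224 and 1.40 ± 0.111 CPM and was not called (adjusted p = 0.397 by edgeR). In bulk RNA, fewer cells of a type and less RNA per cell cannot be told apart, and the part of these markers in the results that follow was not tested.

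Each of the 9 genes passed the edgeR quasi-likelihood test between PT and EL at an adjusted p of 0.05, 3 higher and 6 lower in PT. Of all genes tested 80.7% were called, 39.9% higher and 40.8% lower, so a call by itself says little here. For all 9 the EL and PT ranges were separate, as they were for 82.7% of all genes. Against a 2-fold minimum 2 of the 9 passed, Cdkn2c and Cdkn2d, while 24.6% of all genes did. Every family held both directions: Cdkn1b, Cdkn2a and Rbl2 rose, and the other members of their families fell. All fold changes are log2 values of PT minus EL, with the standard error (SE), and all levels are CPM, a count scaled to a fixed library size with TMM factors, unless stated.

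**Figure D1:**
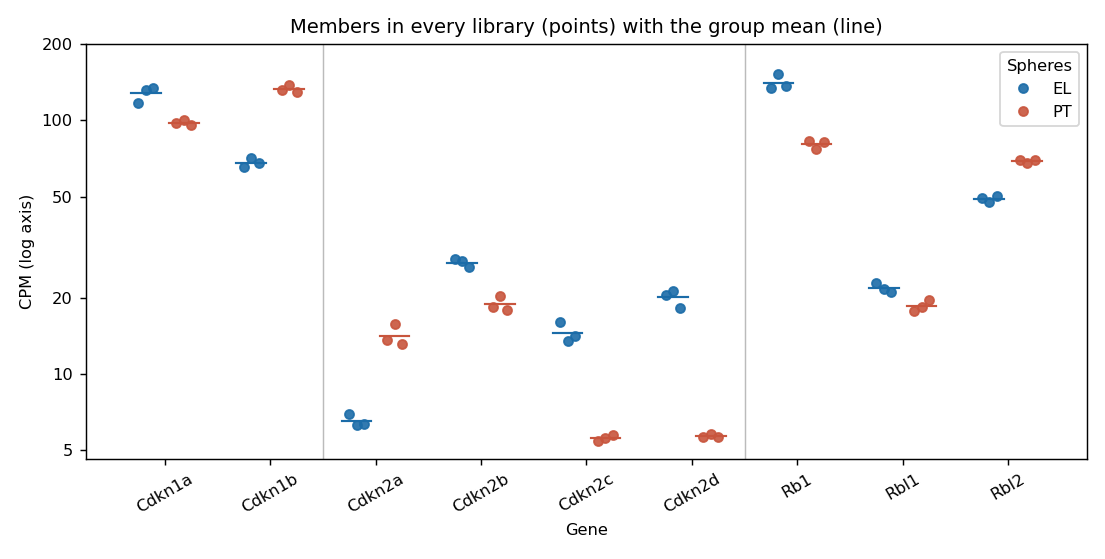
CPM of each gene in every library on a log axis, with EL in blue, PT in red and the group mean as a line; vertical lines part CIP/KIP, INK4 and pocket genes. The 3 PT points lie above the 3 EL points for Cdkn1b, Cdkn2a and Rbl2 and below them for the other 6 genes.

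Among the CIP/KIP genes, Cdkn1b rose and Cdkn1a fell. Cdkn1b (chromosome 6, 134920401 to 134925525) encodes p27, the inhibitor that accumulates in resting cells. It stood at 65.4, 71.0 and 67.6 CPM in EL replicates 1 to 3 and at 132, 138 and 129 in PT replicates 1 to 3. The lowest PT library was far above the highest EL library. The log2 fold change was 0.97 (SE 0.04; adjusted p = 6.25e-11 by edgeR, n = 3 each), a 1.96-fold rise, and 29.5% of tested genes changed by more in either direction.

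Cdkn1a (chromosome 17, 29090979 to 29100722) encodes p21, the main p53-induced CDK inhibitor, and its upstream start carries the p53 element printed above. Its levels were 117, 132 and 134 CPM in EL and 97.3, 99.9 and 96.2 in PT. The PT libraries lay close together, and EL replicate 1 was the EL library nearest to them. The log2 fold change was -0.39 (SE 0.05; adjusted p = 4.54e-06 by edgeR), and it was -0.45 without EL replicate 1 and -0.14 when scaled by library totals, not TMM factors, past the threshold in both. Of all genes, 54.7% changed by more. Both annotated Cdkn1a transcripts had nearly the same counts, for example 4781 and 4771 in EL replicate 1, so the counts do not show which start was used.

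A further pair of genes that act on CDKs, Cdkn1c and Cdkn3, both fell. Cdkn1c, the imprinted CIP/KIP gene that encodes p57, went from 7.40 ± 0.546 to 0.965 ± 0.102 CPM (SD over 3 libraries in both groups; log2 fold change -2.93, SE 0.13). Cdkn3, a phosphatase gene expressed in dividing cells, went from 3.33 ± 0.391 to 1.03 ± 0.153 CPM (log2 fold change -1.68, SE 0.16).

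Within the INK4 family Cdkn2a rose and its 3 relatives fell. The row kept for Cdkn2a was the ARF transcript, with 283, 249 and 254 counts in EL and 695, 843 and 729 in PT, which is 6.95, 6.27 and 6.33 against 13.6, 15.8 and 13.1 CPM. The groups lay well apart, and PT replicate 2 was the highest library. The log2 fold change was 1.12 (SE 0.09; adjusted p = 7.77e-08 by edgeR), the highest of the 9 genes, and 26.2% of genes changed by more. Against a 2-fold minimum it did not pass (adjusted p = 0.13 by edgeR).

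Cdkn2b (chromosome 4, 89306289 to 89311032) encodes p15, an inhibitor induced by TGF-beta, and is separated from Cdkn2a by 11669 bases. Its levels were 28.3, 27.8 and 26.4 CPM in EL and 18.4, 20.3 and 17.8 in PT. The neighbours on chromosome 4 therefore moved in opposite directions, since Cdkn2b had a log2 fold change of -0.55 (SE 0.06; adjusted p = 1.40e-06 by edgeR). With library totals the Cdkn2b value was -0.30, still past the threshold.

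Cdkn2c (chromosome 4, 109660876 to 109666756) and Cdkn2d (chromosome 9, 21288459 to 21291421) encode p18 and p19INK4d, INK4 proteins with roles in development and in the timing of cell cycle exit. Cdkn2c stood at 16.02, 13.5 and 14.1 CPM in EL and at 5.46, 5.60 and 5.75 in PT, a log2 fold change of -1.38 (SE 0.08; adjusted p = 3.67e-09 by edgeR). Cdkn2d stood at 20.5, 21.3 and 18.2 CPM in EL and at 5.66, 5.81 and 5.64 in PT. Its log2 fold change of -1.81 (SE 0.07; adjusted p = 8.61e-11 by edgeR) was a 3.51-fold fall, and 16.3% of genes changed by more. These 2 genes had the largest changes of the 9, and against a 2-fold minimum their adjusted p-values by edgeR were 0.00024 and 6.86e-08.

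The transcript rows of Cdkn2a bear on which product was measured. The INK4a row had 214, 200 and 188 counts in EL and 575, 695 and 604 in PT, so it rose with the ARF row, and its log2 fold change was 1.23 in a fit that used it in place of the ARF row. The ARF row was the higher in every library, by 69, 49 and 66 counts in EL and by 120, 148 and 125 in PT. If a read is counted for each transcript it overlaps, these differences are the least number of reads that lay in exons of the ARF model alone. The INK4a row was at 0.767 ± 0.0328 of the ARF row in the 3 EL libraries and at 0.827 ± 0.00211 in the 3 PT libraries (mean and SD), with the 3 PT ratios above the 3 EL ratios. A count of INK4a itself cannot be had from these rows. The first exon is 320 bases long for ARF and 207 for INK4a in the GENCODE models, and exon 3 is 234 and 304 bases long. The ratio of the rows therefore does not rest on the first exons alone.

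**Figure D2:**
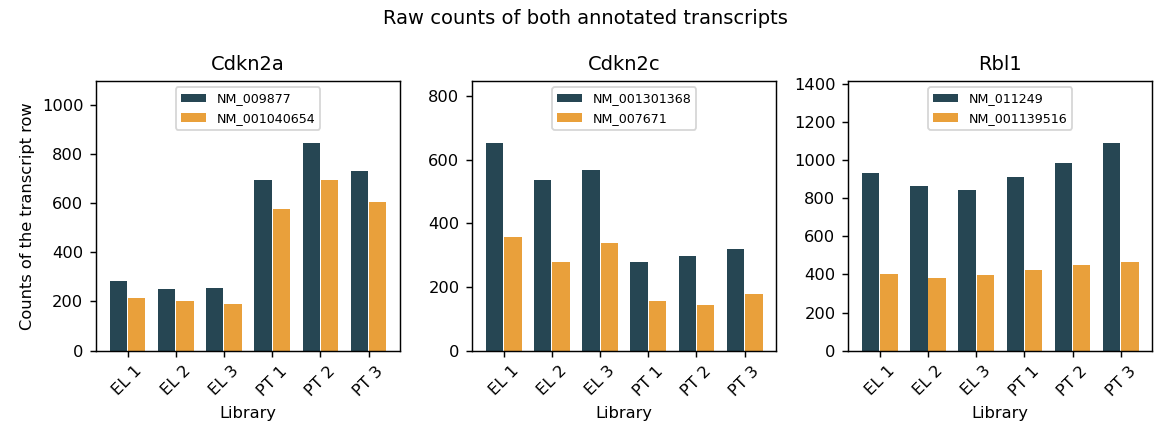
Raw counts of the annotated transcripts of Cdkn2a, Cdkn2c and Rbl1 in each library, not scaled for library size. Both Cdkn2a rows are higher in PT and both Cdkn2c rows lower, while the shorter Rbl1 transcript stays at a similar share of the longer one.

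For Cdkn2c the row of the transcript with the upstream first exon (NM_001301368) had 652, 538 and 567 counts in EL and 280, 299 and 320 in PT. The row of the transcript that starts downstream (NM_007671) had 356, 280 and 339 and then 157, 145 and 177. Its ratio to the first row was 0.555 ± 0.0395 in EL and 0.533 ± 0.0417 in PT, ranges that overlap. Both rows were lower in PT, and a change of start site was not detectable.

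The pocket protein genes went different ways. Rb1 (chromosome 14, 73192858 to 73325951) encodes the retinoblastoma protein, and it stood at 134, 152 and 137 CPM in EL and at 82.6, 76.8 and 82.2 in PT. The highest PT library was well under the lowest EL library. The log2 fold change was -0.81 (SE 0.05; adjusted p = 3.54e-09 by edgeR), a 1.75-fold fall, and with library totals it was -0.56. Rcbtb2 on the opposite strand shares 105 exon bases with Rb1 and measured 34.6 ± 0.725 and 34.4 ± 0.571 CPM in EL and PT (adjusted p = 0.795 by edgeR).

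Rbl2 (chromosome 8, 91070057 to 91123844), the gene of p130, rose from 49.4, 47.8 and 50.2 CPM in EL to 69.6, 67.8 and 69.7 in PT. Libraries of a group lay within a few CPM of each other. Its log2 fold change was 0.49 (SE 0.04; adjusted p = 2.93e-08 by edgeR), and 47.6% of genes changed by more. Aktip, on the opposite strand, shares 418 exon bases with Rbl2 and rose by more, with a log2 fold change of 1.14 (SE 0.03). The strand setting of the counts is not given in the sources used here, so reads from the shared bases cannot be told apart.

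Rbl1 (chromosome 2, 157145893 to 157204534), the gene of p107 and itself a known E2F target, had the smallest change. It stood at 22.9, 21.7 and 21.0 CPM in EL and at 17.8, 18.4 and 19.6 in PT, with a log2 fold change of -0.23 (SE 0.06; adjusted p = 0.00180 by edgeR). The groups lay close together but did not overlap. With library totals the direction turned (log2 fold change 0.01; adjusted p = 0.853 by edgeR), so the fall of Rbl1 rests on the scaling. The shorter annotated transcript, at 403, 380 and 398 counts in EL and 422, 452 and 467 in PT, held 0.448 ± 0.021 of the longer row in EL and 0.450 ± 0.0187 in PT. No shift between them was detectable.

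**Figure D3:**
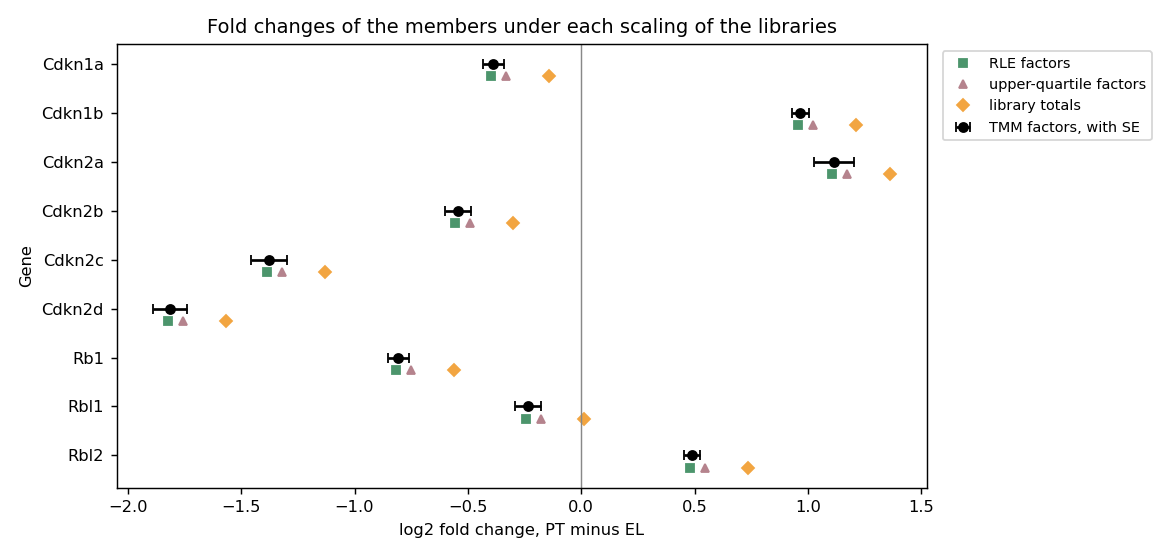
log2 fold change of each gene, PT minus EL: black points with SE bars are the values with TMM factors, and coloured symbols those with other scalings. Library totals move every gene to the right by about the same amount, and Rbl1 (-0.23 with TMM factors, 0.01 with library totals) is the gene whose direction turns.

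Ratios of genes within a library do not depend on the scaling between libraries. The Rbl2 to Rb1 ratio of counts was 0.368, 0.315 and 0.368 in EL and 0.843, 0.882 and 0.849 in PT, a difference in log2 ratio of 1.295. Rbl2 to Rbl1 went from 2.16, 2.20 and 2.39 to 3.91, 3.68 and 3.56, a difference of 0.73. Rbl1 to Rb1 differed by 0.57 in the same sense, from a log2 ratio of -2.68 ± 0.13 to -2.12 ± 0.09 (SD, n = 3 each). So the counts of Rbl2 gained on both relatives and those of Rbl1 on Rb1, in every PT library against every EL library. Reads from the bases that Rbl2 shares with Aktip cannot be told apart in these ratios either.

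The balance of the CIP/KIP pair shifted towards Cdkn1b. The Cdkn1a to Cdkn1b ratio of counts was 1.80, 1.86 and 1.99 in EL and 0.736, 0.726 and 0.746 in PT, a difference in log2 ratio of -1.35. Against its partners, Cdkn1b had 1.74, 1.93 and 2.05 counts for each count of Cdk2 in EL and 4.45, 4.76 and 4.28 in PT. For each count of Skp2, the F-box protein gene whose product marks p27 for breakdown, it had 7.24, 8.44 and 7.89 in EL and 32.3, 35.2 and 28.4 in PT. That was a difference in log2 ratio of 2.02, the largest of the 7 ratios computed. Cdkn2c fell against Cdk4, the gene of a target kinase, from a log2 ratio of -4.21 ± 0.10 to -5.39 ± 0.06. Cdk6, the gene of the other kinase that INK4 proteins bind, was chosen after its values were seen. Its mean level was 7.43 CPM in EL and 3.73 CPM in PT, so it was lower in PT too. No ratio to Cdk6 was computed, and the shift given here is against Cdk4 alone.

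Levels per length, CPM divided by the longest GENCODE model in kb, allow genes to be set side by side. In EL the order was Cdkn1a at 66.9 ± 4.78 CPM per kb, Rb1 at 30.3 ± 2.04 and Cdkn1b at 28.4 ± 1.16, then Cdkn2b, Cdkn2d, Rbl2, Cdkn2a, Cdkn2c and Rbl1, the last at 4.502 ± 0.20. Only Rb1 and Cdkn1b, as neighbours in this order, had ranges over libraries that overlapped. In PT the order was Cdkn1b at 55.6 ± 1.83, Cdkn1a at 51.1 ± 0.983, Rb1 at 17.3 ± 0.691, Cdkn2a at 15.8 ± 1.61, Rbl2, Cdkn2b, Cdkn2d, Rbl1 and Cdkn2c, the last at 2.27 ± 0.0585. The neighbours Rb1 and Cdkn2a, Rbl2 and Cdkn2b, and Cdkn2d and Rbl1 overlapped there. The place of Cdkn1a rests on its length, since the longest model has 1913 bases and the GENCODE model matched to the counted transcript 922. With the latter, chosen after the data were seen, Cdkn1a was at 139 ± 9.91 CPM per kb in EL and 106 ± 2.04 in PT, above Cdkn1b in both groups. Yet the 2 Cdkn1a rows had nearly equal counts (mean ratio 0.9986 in EL and 0.9982 in PT), although the matched models differ widely in length. The counted row may thus have been longer than 922 bases, so the levels with that length are uncertain.

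By the same length-scaled levels, the make-up of each family shifted. The share of Cdkn1b in the CIP/KIP pair went from 29.9 ± 1.06% to 52.1 ± 0.346%, or from 17.03 ± 0.716% to 34.4 ± 0.313% with the shorter Cdkn1a model, so it grew with either length but was the larger share in PT with the longest model alone. Cdkn2a made up 15.5 ± 0.631% of the summed level of the INK4 family in EL and 44.3 ± 1.26% in PT (mean and SD of 3 libraries). Its row is that of the ARF transcript, so this is not a share of p16INK4a. In the same family Cdkn2d went from 29.9 ± 1.47% to 11.3 ± 0.616% and Cdkn2c from 12.5 ± 0.871% to 6.39 ± 0.509%. Cdkn2b changed least, from 42.1 ± 0.51% to 38.04 ± 0.231%. Among pocket proteins, Rb1 went from 67.6 ± 1.88% to 49.2 ± 0.735% and Rbl2 from 22.4 ± 1.39% to 39.9 ± 0.461%, and Rbl1 stood at 10.1 ± 0.666% and 10.9 ± 0.516%.

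**Figure D4:**
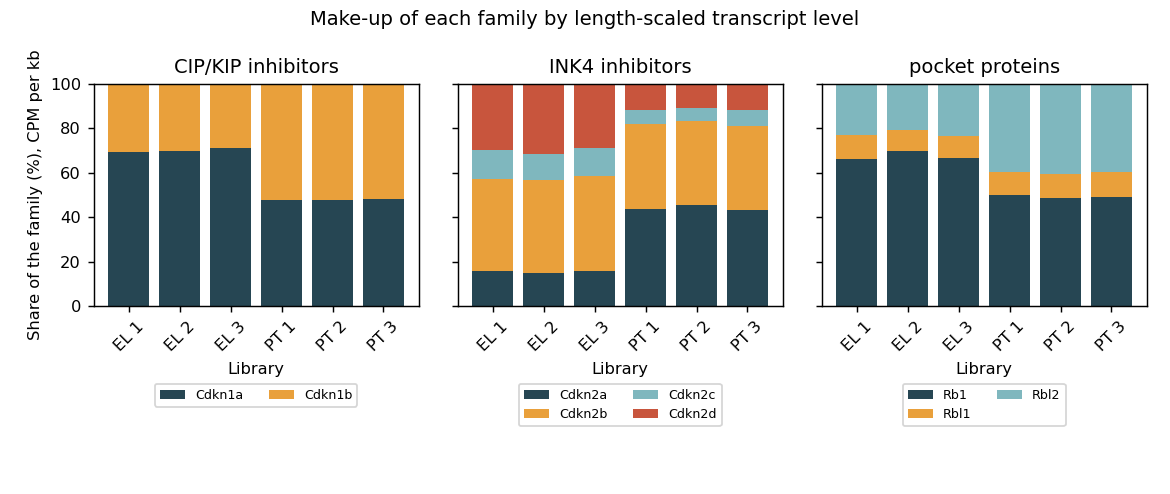
Stacked bars of the share of each gene in its family's summed CPM per kb, 1 bar per library. The 3 bars of a group look alike, and between EL and PT the share of Cdkn1b (29.9% to 52.1%, and 17.03% to 34.4% with the shorter Cdkn1a model, not drawn), of Cdkn2a (15.5% to 44.3%) and of Rbl2 (22.4% to 39.9%) grew. The Cdkn2a row is that of the ARF transcript, so its share is not a share of p16INK4a.

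The genes on which these proteins act were mostly lower in PT. Of 9 genes of G1 cyclins and their kinases, 7 fell and 1 rose, with a median log2 fold change of -0.79 (with library totals 5 fell and 2 rose), where the median of all tested genes was 0.005. Ccnd1, cyclin D1, stood at 143 ± 2.40 and 146 ± 2.18 CPM and missed the threshold (edgeR, adjusted p = 0.331), but was called higher with library totals (0.28, adjusted p = 1.58e-06). Cdk4, the D cyclin kinase, was at 269 ± 9.50 and 234 ± 5.29 CPM (log2 fold change -0.20, SE 0.03), and Cdk2, the E cyclin kinase, at 35.8 ± 2.40 and 29.6 ± 0.627 (-0.27, SE 0.05). Both calls ended with library totals (adjusted p = 0.229 and 0.625 by edgeR). Ccne1, cyclin E1, fell from 13.4 ± 0.974 to 3.397 ± 0.0787 CPM. Chosen after its values were seen, Ccnd2, cyclin D2, fell by 6.16 on the log2 scale (SE 0.06), from a mean of 244 CPM to 3.41 CPM. The median of the fibroblast markers was -6.58, and their part in this fall was not tested.

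Genes that control p27 were 5 higher and 2 lower of 9, with a median of 0.13. Skp2 fell from 8.67 ± 0.328 to 4.18 ± 0.325 CPM and Cks1b, its cofactor, from 37.1 ± 1.28 to 20.9 ± 1.71. The FOXO factor genes Foxo3 and Foxo1, whose products activate Cdkn1b transcription, rose from 49.6 ± 2.37 to 70.0 ± 1.79 and from 88.6 ± 3.27 to 112 ± 6.92 CPM. With library totals 7 of the 9 were higher and 2 lower.

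Of 10 E2F and DP factor genes, 8 fell and 2 rose, with a median of -0.43, and with library totals 6 fell and 3 rose. E2f1, an activating E2F bound by the retinoblastoma protein, fell by 1.56 on the log2 scale (SE 0.05), from 47.2 ± 2.13 to 15.98 ± 0.805 CPM. E2f4, a partner of p107 and p130, went from 57.8 ± 0.698 to 44.9 ± 1.49 CPM (-0.37, SE 0.04) and Tfdp1, a dimer partner, from 97.0 ± 1.58 to 69.1 ± 1.39. The 2 genes that rose, chosen after their values were seen, were E2f5, the other partner of p107 and p130, and Tfdp2. E2f5 went from 10.8 ± 1.28 to 15.8 ± 0.846 CPM (0.55, SE 0.08) and Tfdp2 from 35.5 ± 0.513 to 59.7 ± 1.89 (0.75, SE 0.04). E2f3 was at 39.9 ± 0.375 and 36.1 ± 1.31 CPM (-0.15, SE 0.04); it missed the threshold with upper-quartile factors and was called higher with library totals (0.10, adjusted p = 0.033 by edgeR). The MuvB list was split, 3 higher and 3 lower of 7. Its fixed part Lin9 rose (0.70, SE 0.05) and Lin54 fell (-0.61, SE 0.05), and the proliferation factors Mybl2 (-1.69, SE 0.11) and Foxm1 (-1.52, SE 0.07) fell.

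All 18 E2F target genes of DNA replication fell, and their median log2 fold change was -0.83. Rrm2, a ribonucleotide reductase subunit, fell from 46.0 ± 5.10 to 11.4 ± 0.0995 CPM, Ccna2, cyclin A2, from 45.6 ± 1.07 to 22.9 ± 0.781, Mcm3, a helicase subunit, from 41.5 ± 2.30 to 22.8 ± 0.627 and Pcna, the polymerase clamp, from 90.1 ± 0.370 to 72.1 ± 3.43. Using library totals, 15 of them fell and 1 rose, and the Pcna call ended (adjusted p = 0.0811 by edgeR). All 8 mitosis and proliferation markers fell, with a median of -1.65, among them Mki67 (-1.25), Top2a (-1.69), Cdk1 (-1.58) and Ccnb1 (-1.70). Mcm7 (-0.10, turning to 0.15 with library totals; chosen after its values were seen) was the one replication gene with a smaller fall than Rbl1. These lists fell beside the fibroblast and endothelial markers given above, and the part of those cells in the falls was not tested.

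**Figure D5:**
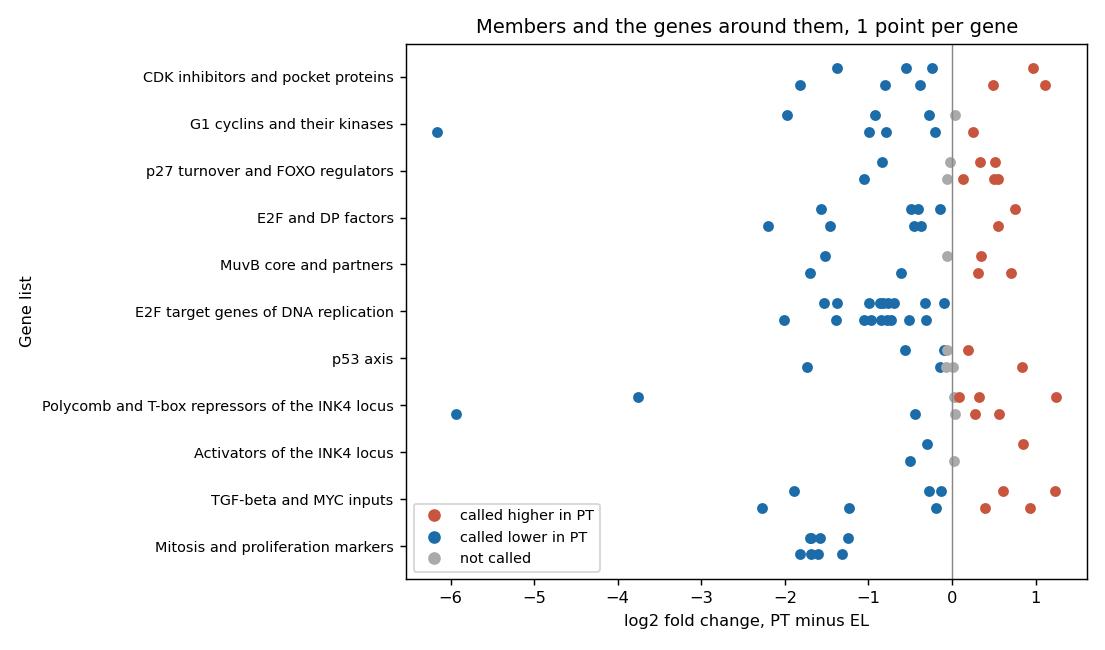
log2 fold change, PT minus EL, of each gene in the members' list and in 10 lists around them; red points were called higher, blue lower and grey not called. All points of the replication and mitosis lists lie left of 0, while the members, the p27 regulators and the polycomb list have points on both sides.

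Upstream genes were mixed. In the p53 list 2 of 9 rose and 4 fell, with a median of -0.075, and with library totals 7 rose and 2 fell. Trp53 was at 121 ± 7.80 and 139 ± 1.77 CPM (log2 fold change 0.20, SE 0.04), and Mdm2, its ubiquitin ligase and target, at 107 ± 2.21 and 96.7 ± 0.607 (-0.14, SE 0.03), turning to 0.10 with library totals. The p53 targets Ccng1 and Sesn1 did not pass (adjusted p = 0.585 and 0.309 by edgeR), and both were called higher with library totals. Gadd45a, another p53 target, chosen after its values were seen, fell from 91.1 ± 1.93 to 27.2 ± 1.42 CPM. Other genes of the list, likewise chosen after their values were seen, went both ways. Btg2 rose (0.83, SE 0.05) and Phlda3 fell (-0.56, SE 0.04).

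Regulators of the Cdkn2a-Cdkn2b locus also went both ways. Of 10 polycomb and T-box repressor genes, 5 rose and 3 fell, and with library totals 7 rose and 3 fell. Cbx7, a polycomb subunit that represses the locus, rose from 8.26 ± 0.479 to 19.6 ± 0.620 CPM, and Tbx2, a T-box repressor, fell from 7.04 ± 0.798 to 0.518 ± 0.0241. Bmi1 was at 73.2 ± 0.363 and 77.4 ± 0.653 CPM (log2 fold change 0.08, SE 0.03), a call that ended with RLE factors (adjusted p = 0.0504 by edgeR). Ezh2 did not pass (adjusted p = 0.522 by edgeR) and was called higher with library totals. Of 4 activators 1 rose and 2 fell, and with library totals 2 rose and 1 fell. Ets2 rose from 165 ± 5.57 to 298 ± 7.89 CPM, Ets1 fell from 158 ± 4.21 to 112 ± 2.45, Dmtf1, an activator of ARF, was at -0.30 (SE 0.04), a call that ended with library totals (adjusted p = 0.18 by edgeR), and Kdm6b did not pass (adjusted p = 0.472 by edgeR), though it was called higher with library totals.

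Inputs from TGF-beta and MYC, which raise and lower Cdkn2b and Cdkn1a, were 4 higher and 6 lower of 10, and 5 higher and 3 lower with library totals. Tgfb1 fell from 239 ± 9.59 to 49.3 ± 3.68 CPM and the receptor gene Tgfbr2 from 745 ± 16.6 to 201 ± 3.58, while Smad3 rose from 77.4 ± 2.50 to 118 ± 4.27. The other ligand genes of the list, chosen after their values were seen, went against Tgfb1. Tgfb2 rose from 36.9 ± 0.499 to 70.9 ± 0.947 CPM and Tgfb3 from 301 ± 15.6 to 707 ± 15.8. Myc was at 70.6 ± 1.38 and 58.2 ± 0.0325 CPM (log2 fold change -0.28, SE 0.03), and its call ended with library totals (adjusted p = 0.372 by edgeR). Chromatin partners of pocket proteins were 2 higher and 3 lower of 6, and 4 higher and 1 lower with library totals. Kdm5a and Arid4a rose (0.41, SE 0.04, and 0.32, SE 0.05), the histone methyltransferase gene Suv39h1 fell (-0.97, SE 0.06) and Hdac1 was at -0.24 (SE 0.04), a call that ended with library totals (adjusted p = 0.82 by edgeR).

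Genes linked to senescence, a lasting arrest held by p16INK4a and p21, were 2 higher and 5 lower of 7. Lmnb1, a lamin gene that is usually lost in senescent cells, was at 47.5 ± 1.83 and 54.4 ± 0.112 CPM (log2 fold change 0.20, SE 0.04). Glb1, the gene of the β-galactosidase used as a senescence stain, fell from 192 ± 5.93 to 63.6 ± 0.400 CPM. Il6, a secreted cytokine gene, fell from 5.74 ± 1.63 to 0.167 ± 0.0423 CPM. Most of these genes fell, while the ARF row of Cdkn2a rose and p16INK4a itself could not be counted. Since Lmnb1 is usually lost in senescent cells, the number of genes that fell is no reading of senescence. The list fell beside the fibroblast markers, whose part in it was not tested.

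The patterns most like those of the genes at the ends of the range were sought by correlation of log2 CPM over the 6 libraries. For Cdkn2a they were Hps1 (r = 0.9994), Hgs (r = 0.9989) and Mbtps1 (r = 0.9988), and for Cdkn2d Cyyr1 (r = 0.9998), Cep85 (r = 0.9997) and Fosl1 (r = 0.9997). Such values follow largely from the gap between the groups, which most genes share. Genes so alike in pattern differed in size of change, with log2 fold changes of 0.40 for Hps1, 0.21 for Hgs and 0.08 for Mbtps1, and of -0.59 for Cep85 and -1.75 for Fosl1. Cyyr1 had 0 counts in all PT libraries.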

How the data were processed

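RNA counts of 3 EL and 3 PT sphere libraries were used. Raw whole-number counts per RefSeq transcript were deposited by the authors, 1 table per library, and per the submitters' processing notes STAR, featureCounts, DESeq2, with the builds mm10 and hg19 were named; the sources used here give neither versions, parameters nor strand. The table of EL replicate 1 ends inside a row after 27664 of 33068 rows. The rows of all 9 members precede the break. Adgre1, a listed macrophage marker, has no row under that symbol and was not counted. Rows present in all 6 tables were used, keeping for each symbol the transcript of highest mean count. A read can be counted for several transcripts of a gene. The quasi-likelihood fit used edgeR 4.0.16 under R 4.3.3 on genes passing filterByExpr (TMM factors, quasi-likelihood test, Benjamini-Hochberg over all genes, threshold 0.05), and the fits were tested on simulated data. The SE is the absolute log2 fold change divided by the square root of F. Alternatives were other scalings, limma-voom 3.58.1, DESeq2 1.42.0, other filters and transcripts, a 2-fold minimum, a replicate block and each library left out. Members and lists were chosen with earlier results of these data known. The rule names every member, the first 4 genes of each list and the 3 genes most alike in pattern to the member with the largest rise and the largest fall; marker lists of cell types are given as counts and summed shares, and other genes are marked as chosen after their values were seen. One gene that the rule names is not reported here. Positions and promoters are those of RefSeq on GRCm38.p6, which is the mm10 build; the accession was matched for 99.2% of tested genes.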

Additional observations from a re-analysis of the deposited data

How the results depend on the processing

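Of the 9 genes, 8 kept their direction and their call with RLE factors, upper-quartile factors, library totals, DESeq2, limma-voom, both other filters, both other choices of transcript, the replicate block and each library left out. The exception was Rbl1, which with library totals was at 0.0115 on the log2 scale. Cdkn1b, Cdkn2b, Cdkn2d and Rb1 have only 1 transcript row, so for them the choice of transcript changed only the rest of the fit. The choice of the lowest row took only rows with at least 50% of the highest, so Rbl1 kept its row there. For Cdkn1a and Rbl2 the rows had nearly equal counts, so these choices could change little. Against a 2-fold minimum 2 genes passed, 0 higher and 2 lower (all tested genes: 3401 called, 1010 higher and 2391 lower), which follows from the stricter null. With each library left out in turn, edgeR called 10758 to 11283 genes in all, and 3 of the 9 genes higher and 6 lower each time; the log2 fold change of Rbl1 was between -0.27 and -0.20. Library totals moved the median log2 fold change of all genes by 0.25, and 65.8% instead of 49.5% of called genes were then higher. The replicate numbers did not pair the libraries, with correlations of deviations of 0.022, 0.008 and -0.002 for equal numbers; the replicate block called 11203 genes against 11173 and changed no call among the 9 genes. All 7 log2 ratios moved by less than the spread between libraries with other transcripts. Part of this was fixed beforehand, since Cdkn1b and Rb1 have no other transcript row. The difference for Cdkn1b to Cdk2 was 1.2395 with every choice of transcript, an unchanged value, so this choice did not test that ratio. With the length of the GENCODE model matched to each counted transcript in place of the longest model, the share of Cdkn1b in PT was 34.4% against 52.1%. This setting was added after the data were seen, and for Cdkn1a the matched length is uncertain. Each pocket protein share moved by less than 1 percentage point, where only the length of Rbl2 differed. The INK4 shares could not change, since the counted transcript of each INK4 gene is its longest model, so they were not tested by this. Low counts limit Cdkn2a most, with 249 to 283 counts in EL.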

Other observations

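E2F words in promoters were set beside the fold changes over all genes, a comparison chosen after the data were seen. Of 10395 tested genes with a promoter window, 40.3% were called higher and 40.0% lower in PT by edgeR. Of the 470 whose window held an E2F word, 38.5% were higher and 41.7% lower, with a median log2 fold change of -0.014 against 0.012 for all. Among the replication targets with a window, the word was found in 7, Mcm3, Mcm5, Mcm6, Mcm7, Cdc6, Cdt1 and Pola1, and the median was -0.863, while the 7 without it had a median of -0.782. The word in this window thus did not part the replication genes, all of which were lower. Over all genes, the shares among those with the word were close to the shares among all tested genes with a window. This says nothing of binding. A p53 element was found in the windows of 7 tested genes, Cdkn1a among them, of which 1 was higher and 4 lower.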
